A study of Homo sapiens with 6 samples.

Results

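Mitochondrial ribosomal protein genes were taken as every gene whose symbol is MRPL or MRPS followed by a number and, in some cases, a letter from A to C. This name pattern found 78 of the 27605 genes in the expression table, 49 with an MRPL symbol and 29 with an MRPS symbol. The RNA came from a human liver cancer line labelled HepG2 and was sequenced as mRNA in 6 libraries. In 3 libraries, called shNC and given the genotype WT in the labels, the cells carried a negative control hairpin. The 3 shARHGEF2 libraries, whose genotype is given as ARHGEF2 knockdown, came from cells infected with a lentivirus against ARHGEF2. ARHGEF2 encodes a guanine nucleotide exchange factor that activates the small GTPase RHOA. No drug, time point or other agent is named for either group. The number of hairpins behind the shARHGEF2 libraries and whether the 3 libraries of a group came from separate cultures are not stated, so the p-values measure the spread between these libraries, which may be technical.

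Mitochondria keep their own ribosome in the matrix, which makes the few hydrophobic proteins of the respiratory chain and ATP synthase that are encoded by mitochondrial DNA. The rRNAs of this ribosome come from mitochondrial DNA, whereas its proteins are encoded in the nucleus, made in the cytosol and imported. A part of these proteins have counterparts in the bacterial ribosome, and the others were added in the mitochondrial lineage. MRPL and MRPS symbols mark the large and the small subunit, although MRPS30 and MRPS18A were placed in the large subunit by later structures and MRPS36 is now counted as a subunit of the oxoglutarate dehydrogenase complex.

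ARHGEF2 itself stood at 13.03, 14.40 and 13.95 FPKM (fragments per kilobase of transcript, scaled to the depth of the library) in shNC libraries 1 to 3 and at 4.249, 4.004 and 4.817 FPKM in shARHGEF2 libraries 1 to 3. Its level was far lower in every shARHGEF2 library, with a difference of -1.47 ± 0.11 (SE) on the log2(FPKM + 1) scale (adjusted p = 0.00244 in limma). The call was lost without a filter on low values (adjusted p = 0.0701) and with a replicate block (adjusted p = 0.0716). A rough estimate from the spacing of low values gave 19720000 to 22940000 read pairs per library. At these depths only 38.7% to 40.7% of low values lay within 0.1 of whole pairs, so the estimate is uncertain. The log2 values of any 2 libraries correlated at 0.974 to 0.987 across genes. Over the 12291 genes whose mean reached 0.5 FPKM, 24 were called higher in shARHGEF2 cells and 10 lower at an adjusted p under 0.05, and median ratio scaling left 4 and 3. Of 15 hepatocyte markers, 7 were listed in the table used here, and only VTN reached 1 FPKM. AFP stayed between 0 and 0.0703 FPKM and APOA1 between 0 and 0.248 FPKM, so markers known for HepG2 were at or near 0 in libraries of both groups. The epithelial keratins KRT8, KRT18 and KRT19 were plentiful, with mean levels of 153, 175 and 67.6 FPKM, while the other epithelial markers on the list, EPCAM and CDH1, were at 0.040 and 0.010 FPKM. The fibroblast list, of which LUM, COL1A1 and DCN passed 1 FPKM, summed to 36.0 to 48.4 FPKM in shNC and 34.4 to 40.5 FPKM in shARHGEF2 libraries. Most of this sum was LUM, with a mean of 29.9 FPKM, while PDGFRB and COL1A2 were at 0.56 and 0.020 FPKM. Among leukocyte markers CD68 was at 77.9 FPKM, but CD3E, LYZ and PTPRC were at 0.018, 0.0094 and 0.0089 FPKM. Endothelial markers in the table stayed under 1 FPKM, with PECAM1 the highest at 0.70 FPKM.

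All 78 mitochondrial ribosomal protein genes passed the filter on low values. Their mean level over the 6 libraries ran from 0.9002 to 237.9 FPKM, with a median of 14.4 FPKM, which lay at the 77.3 percentile of the genes tested. MRPL genes had a median level of 18.7 FPKM and MRPS genes a median of 11.6 FPKM. Since FPKM is a value per transcript length, these levels can be compared between genes, although each depends on the transcript models that were quantified. The most abundant was MRPL12, the protein of the flexible stalk that recruits translation factors, at 237.9 FPKM. MRPS34 followed at 176.2 FPKM and MRPL41 at 168.7 FPKM, both without a bacterial counterpart. MRPL14, at 101.5 FPKM, and MRPS26, at 101.1 FPKM, came next, and the groups of all 5 genes overlapped. These 5 genes held 33.0% of the summed FPKM of the family. At the other end, MRPL42 had a mean of 0.9002 FPKM, MRPL1 of 1.40, MRPS33 of 1.47, MRPS31 of 2.00 and MRPL19 of 2.02 FPKM. The longest transcript model of MRPL42 has 15582 nucleotides, beside a family median of 1722. How far its low place depends on this model was not tested. In all, 47 genes lay between 10 and 100 FPKM and 12 under 5 FPKM. The median coefficient of variation between libraries was 11.5% in shNC and 9.77% in shARHGEF2 cells, and the largest in shNC was that of MRPL49, at 61.5%.

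**Figure D1:**
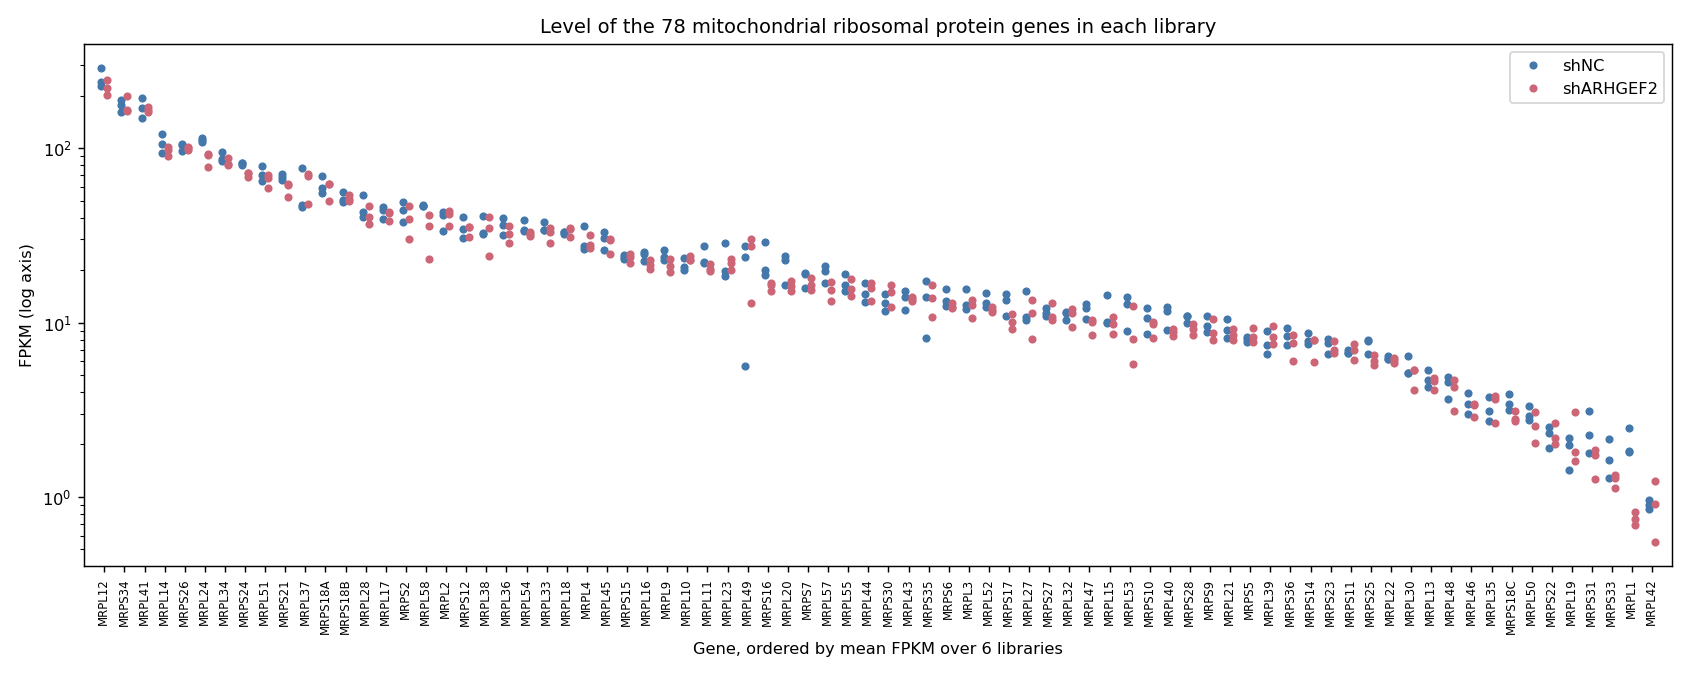
FPKM on a log axis of each of the 78 genes in the 3 shNC (blue) and 3 shARHGEF2 (red) libraries, with genes ordered by their mean over the 6 libraries. Levels run from 237.9 FPKM for MRPL12 to 0.9002 FPKM for MRPL42, the colours mostly intermix, and MRPL1 and a single shNC value of MRPL49 stand apart.

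After ARHGEF2 knockdown, most mitochondrial ribosomal protein transcripts were slightly lower and none was called changed. Of the 78 genes, 63 had a lower and 15 a higher mean log2 value in shARHGEF2 cells, against 50.4% of all genes tested with a value below 0. The median difference was -0.11 on the log2(FPKM + 1) scale, beside -0.0016 over all genes tested and 0.0063 over the 2787 genes with a level of at least the family's median. In limma, 0 members were called higher, where 0.195% of all genes tested were, and 0 were called lower, where 0.0814% were. At an unadjusted p under 0.05, 11 members (14.1%) were lower and 0 were higher, beside 5.55% and 8.1% of all genes tested. All 3 shARHGEF2 values were below all 3 shNC values in 13 members (16.7%, beside 9.17% of genes tested), and the reverse held in 0 members (beside 11.3%). The sizes were small, and 61 of the 78 differences lay within 0.2 of 0. A mean ratio of at most 0.75 was found in 6 members only (MRPL1, MRPS31, MRPL58, MRPS16, MRPL53 and MRPS33), and 43 members had means within 10% of each other. In bulk RNA, fewer cells with a transcript and less of it per cell cannot be told apart.

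The count and the median depended on single libraries. Without shNC 1, shNC 2, shARHGEF2 1, shARHGEF2 2 and shARHGEF2 3, the 11 lower members at an unadjusted p under 0.05 became 3, 4, 5, 4 and 6, and without shNC 3 there were 13. The share of all genes tested that were lower at that p in the same fits was 4.04%, 4.43%, 4.64%, 3.93% and 4.23%, and 6.61% without shNC 3. With the replicate block 6 members were lower, beside 6.68% of genes tested, and 6 were also lower with libraries rescaled to 1 total (3.88%), without trend and robust variances (5.43%) and without a filter on low values (3.16%). As a share of the 78 members, the count was no larger than that of all genes tested without shNC 1. It was little larger without shNC 2, without shARHGEF2 2 and with the replicate block. The median of the members became -0.066 without shNC 1 and -0.071 without shARHGEF2 1.

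**Figure D2:**
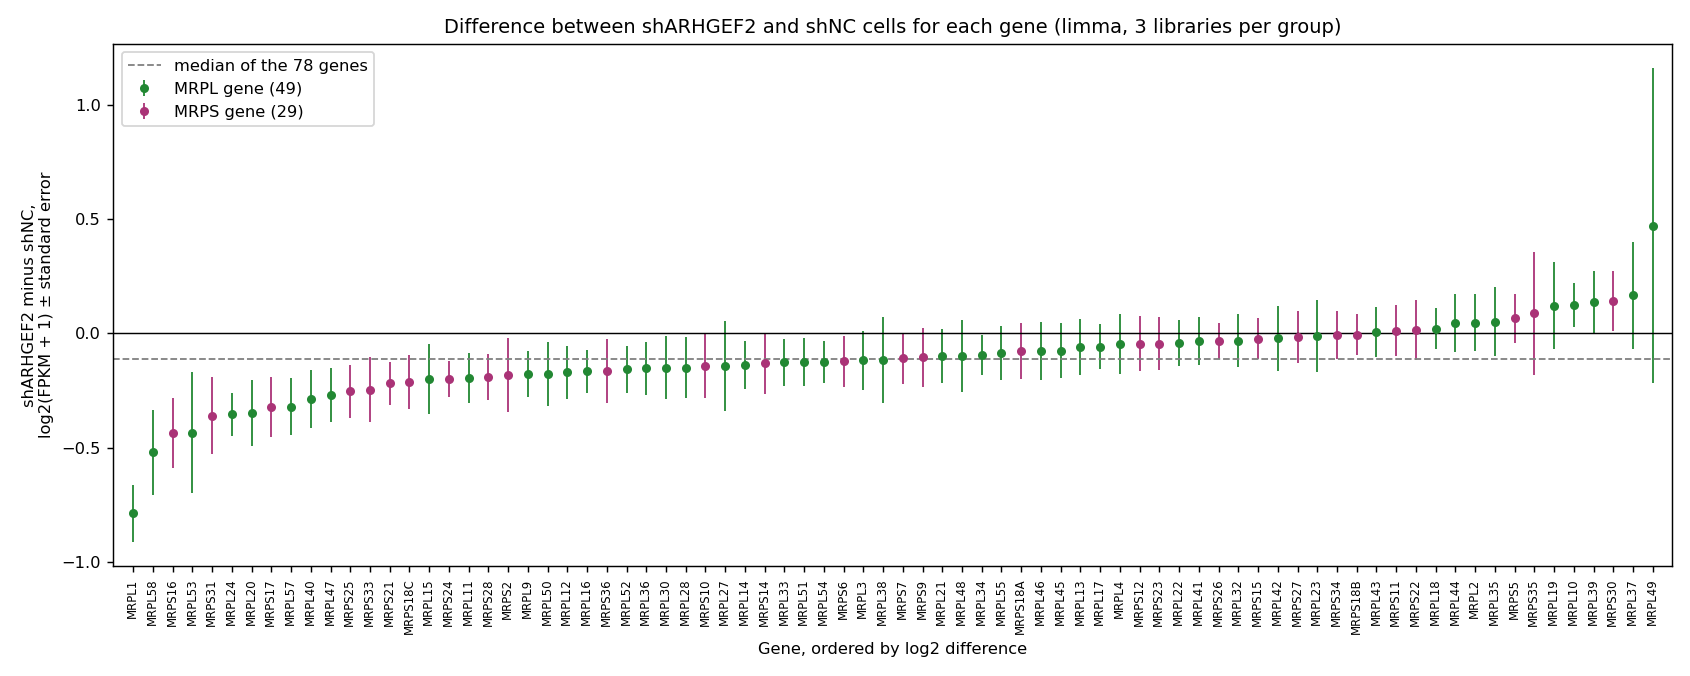
Difference between shARHGEF2 and shNC cells for each of the 78 genes on the log2(FPKM + 1) scale, ordered by size, with the standard error from limma as a bar, MRPL genes in green and MRPS genes in purple. Of the points, 63 lie below 0, the dashed line marks the median of -0.11, and MRPL1 at -0.79 and MRPL49 at 0.47 form the ends.

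The 12 members with the smallest p were all lower in shARHGEF2 cells. MRPL1, a protein of the stalk beside the site where spent tRNA leaves the large subunit, had 2.49, 1.82 and 1.83 FPKM in shNC and 0.824, 0.749 and 0.689 FPKM in shARHGEF2 libraries. Every shARHGEF2 value was below every shNC value, with means of 2.04 ± 0.38 and 0.754 ± 0.067 FPKM (SD, n = 3 each). Its difference of -0.79 ± 0.13 (SE; 95% confidence interval -1.08 to -0.50) gave an adjusted p of 0.0501 in limma, just past the threshold. The same difference was called when genes needed at least 1 FPKM in 3 or more libraries (adjusted p = 0.0426 in limma). MRPL1 passed that filter only through the shNC libraries, where it was higher, so this call adds no support. With a pseudocount of 0.1 the gene was called at -1.32 (adjusted p = 0.0466 in limma). Over all alternatives the adjusted p ran up to 0.308. An exact permutation test gave p = 0.1 for this gene, the smallest that 3 against 3 libraries allow. With levels near 1 FPKM, the values of MRPL1 rest on few read pairs. The gene lies on chromosome 4 from 77862520 to 77952790 on the plus strand (GENCODE 29, GRCh38) and shares no exon with another gene.

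MRPL24 had the second smallest p of the family. This large subunit protein, whose bacterial counterpart starts subunit assembly, had 111.9, 109.3 and 114.3 FPKM in shNC and 91.7, 77.9 and 93.1 FPKM in shARHGEF2 libraries. The groups did not overlap, and the mean of the shARHGEF2 libraries was 0.783 of that of shNC, with a difference of -0.35 ± 0.093 (SE, adjusted p = 0.158 in limma). It lies on chromosome 1 from 156737303 to 156741590 on the minus strand. MRPL58, known as ICT1, is a peptidyl-tRNA hydrolase that became part of the large subunit and can release stalled chains. Its shNC libraries lay close together at 46.8, 46.9 and 47.2 FPKM, whereas shARHGEF2 libraries were spread over 41.2, 23.2 and 35.6 FPKM. The difference of -0.52 ± 0.19 (SE, adjusted p = 0.280 in limma) thus came with a wide range in the knockdown group, and it was -0.29 without shARHGEF2 2. MRPL58 lies on chromosome 17 from 75012670 to 75021261 on the plus strand.

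Small subunit members among the 12 were MRPS16, MRPS24, MRPS17, MRPS21 and MRPS25. MRPS16, a protein whose loss causes a mitochondrial disease of the newborn, had 18.88, 20.02 and 28.89 FPKM in shNC and 15.3, 16.4 and 16.9 FPKM in shARHGEF2 libraries. The groups did not overlap, but shNC 3 stood above the other shNC libraries, and the difference was -0.43 ± 0.15 (SE, adjusted p = 0.267 in limma) with it and -0.25 without it. Of the exon bases of MRPS16, 14.1% are shared with an antisense gene, DNAJC9-AS1. MRPS24, at the entry of the mRNA channel, had 82.8, 82.1 and 80.2 FPKM in shNC and 72.4, 68.3 and 72.5 FPKM in shARHGEF2 libraries. Its groups were the tightest of these 5 and did not overlap, with a difference of -0.20 ± 0.078 (SE, adjusted p = 0.319 in limma). MRPS24 shares 23.2% of its exon bases with the readthrough gene URGCP-MRPS24, which was listed at 0 to 0.185 FPKM. MRPS21 had 71.6, 68.7 and 65.4 FPKM in shNC and 52.7, 61.5 and 62.4 FPKM in shARHGEF2 libraries. This protein, the counterpart of a small bacterial subunit protein, also had groups that did not overlap. MRPS17 and MRPS25 had mean ratios of 0.781 and 0.815, and only the groups of MRPS25 did not overlap.

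The remaining members of the 12, MRPL57, MRPL20, MRPL40 and MRPL47, belong to the large subunit. MRPL20, an early assembly protein in bacteria, had 24.2, 22.8 and 16.5 FPKM in shNC and 16.3, 15.1 and 17.2 FPKM in shARHGEF2 libraries. MRPL57 had 21.2, 19.9 and 16.9 FPKM in shNC and 17.1, 13.4 and 15.4 FPKM in shARHGEF2 libraries. MRPL40 had 12.2, 11.7 and 9.11 FPKM in shNC and 8.81, 8.34 and 9.18 FPKM in shARHGEF2 libraries. In these 3 genes shNC 3 lay at the level of the knockdown libraries, and the groups overlapped. MRPL47, near the exit of the nascent chain, had 12.1, 12.8 and 10.5 FPKM in shNC and 8.51, 10.3 and 10.1 FPKM in shARHGEF2 libraries, without overlap. Across the 12 members the adjusted p in limma ran from 0.0501 to 0.386.

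**Figure D3:**
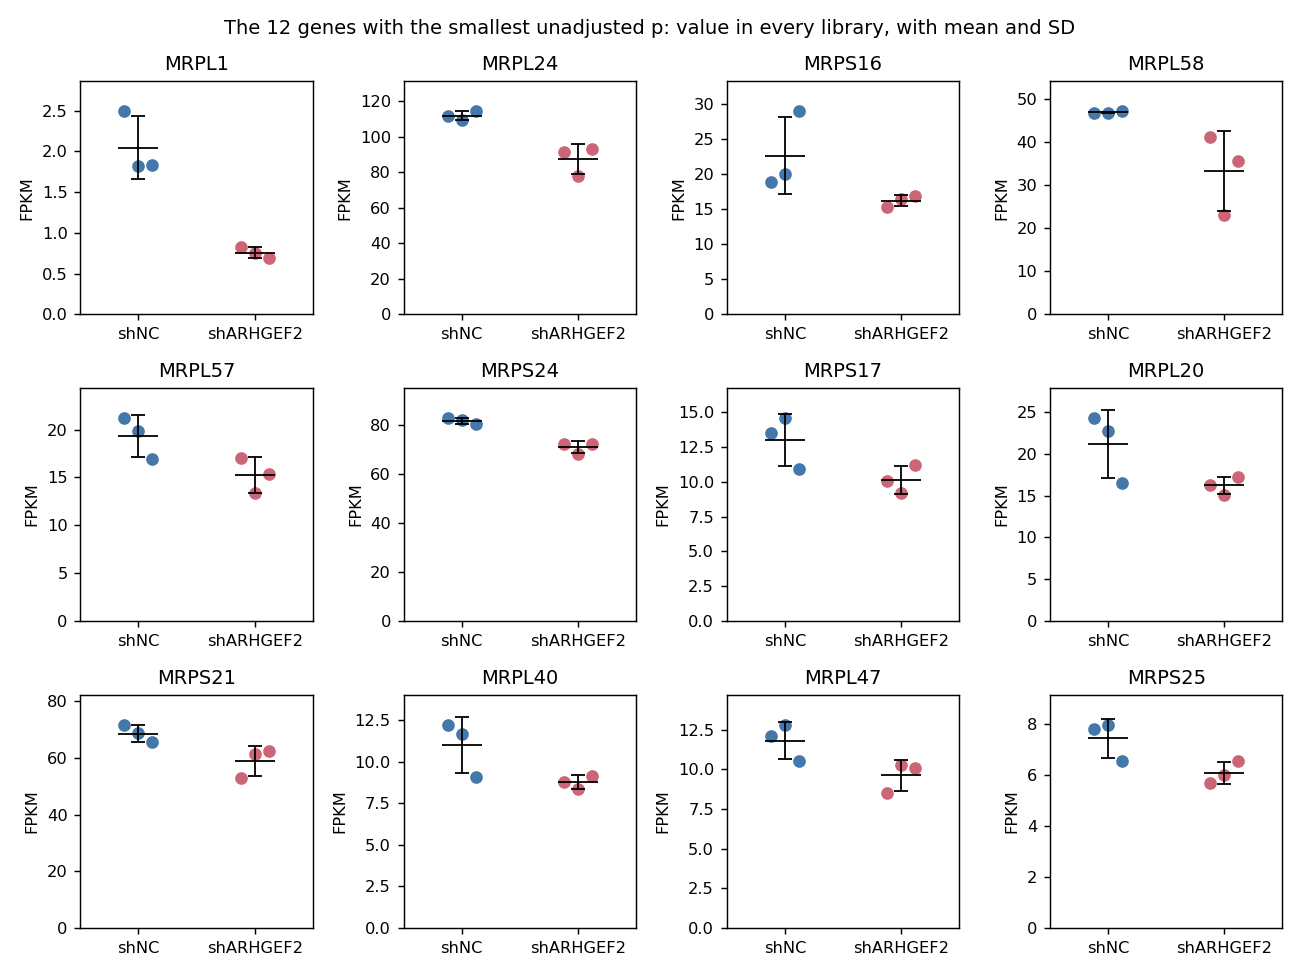
FPKM (axes from 0) in every shNC (blue) and shARHGEF2 (red) library for the 12 genes with the smallest unadjusted p in limma, with black bars for the mean and SD of 3 libraries. MRPL1 has means of 2.04 and 0.754 FPKM, while in MRPL57, MRPS17, MRPL20 and MRPL40 the lowest shNC library reaches into the range of the shARHGEF2 libraries.

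Groups that did not overlap were also found in 6 members outside the 11 with an unadjusted p under 0.05, namely MRPS25, described above, and MRPS28, MRPS18C, MRPL11, MRPL52 and MRPL54. The 3 paralogs of the bacterial protein S18 differed in level and were all on the lower side. MRPS18A had a mean of 59.6 FPKM and a difference of -0.079, MRPS18B had 51.9 FPKM and -0.0061, and MRPS18C had 3.18 FPKM and -0.21. The signs of MRPS18A and MRPS18B turned under some alternatives. MRPL12 had 289.7, 226.6 and 240.4 FPKM in shNC and 245.9, 202.4 and 222.3 FPKM in shARHGEF2 libraries. Its groups overlapped (difference -0.17 ± 0.12, SE), and 68.2% of its exon bases are shared with a second annotated gene on the same strand. MRPL10, the base of the same stalk, went the other way, with 20.76, 19.97 and 23.57 FPKM in shNC and 24.2, 23.0 and 23.0 FPKM in shARHGEF2 libraries, also with overlap.

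The 5 genes with the largest values above 0 were MRPL49 (0.47), MRPL37 (0.17), MRPS30 (0.14), MRPL39 (0.14) and MRPL10 (0.12). All 5 belong to the large subunit, and none had groups that did not overlap. MRPL49 had 23.9, 5.65 and 27.3 FPKM in shNC and 13.04, 27.59 and 30.27 FPKM in shARHGEF2 libraries. Its value rested on shNC 2 alone, since the difference was -0.19 without that library, and its SE of 0.69 was the largest of the family. MRPL49 shares 20.7% of its exon bases with genes on the opposite strand, FAU and SYVN1. Other genes with known roles stayed near 0, with -0.045 for MRPS12 in the decoding centre, 0.046 for MRPL44 and -0.076 for MRPL45, which faces the inner membrane. MRPS36, no longer counted with the ribosome, had -0.16.

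By structural class, 25 of the 30 large subunit genes with bacterial counterparts had a value below 0, with a median of -0.12. Of the 20 large subunit genes specific to mitochondria, 14 were below 0, with a median of -0.088. In the small subunit, 13 of 15 genes with bacterial counterparts (median -0.13) and 7 of 9 specific to mitochondria (median -0.032) were below 0, and the latter median was 0.0027 without shARHGEF2 1 and 0.0051 with libraries rescaled to 1 total. The differences did not follow the level, as 9 of 12 genes under 5 FPKM, 26 of 33 from 5 to 20 FPKM, 16 of 20 from 20 to 50 FPKM and 12 of 13 at 50 FPKM or more were below 0. Across the 78 genes, which share libraries and depth, Spearman's rho of the difference was 0.038 with the log2 level, 0.0023 with transcript GC content and 0.22 with transcript length. Classes were not tested against each other.

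The family's pattern was carried by some libraries more than others. The median deviation of the 78 genes from their own mean over the 6 libraries was 0.11, 0.086 and -0.0091 on the log2 scale in shNC libraries 1 to 3. In shARHGEF2 libraries 1 to 3 it was -0.099, -0.047 and -0.0079. The third library of each group therefore stood at nearly the same value, and the groups overlapped. Over all genes tested, the same medians were -0.056, 0.056 and -0.0094 in shNC and -0.047, 0.038 and 0.022 in shARHGEF2 libraries. Library shNC 1 held the highest value of 27 members (34.6%, beside 13.4% of genes tested), and shARHGEF2 1 held the lowest value of 30 members (38.5%, beside 25.5%). Deviations of all genes tracked transcript GC content with Spearman's rho from -0.458 in shNC 2 to 0.565 in shARHGEF2 1. With this trend removed, the median of the family was -0.11, and the part of GC content in single genes was not tested.

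Summed over the family, the level was 2656, 2359 and 2410 FPKM in shNC and 2295, 2210 and 2360 FPKM in shARHGEF2 libraries. The means were 2475 ± 159 and 2288 ± 75.3 FPKM (SD, n = 3 each), a ratio of 0.925, and the highest knockdown library lay just above the lowest control library. As a share of all FPKM in a library, the family took 0.739% ± 0.019 in shNC and 0.702% ± 0.025 in shARHGEF2 cells (SD, n = 3 each). The ratio of summed MRPL to summed MRPS levels was 2.080, 1.883 and 1.905 in shNC and 2.053, 1.884 and 1.816 in shARHGEF2 libraries, so the spread within each group exceeded the difference of the means (1.96 and 1.92).

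**Figure D4:**
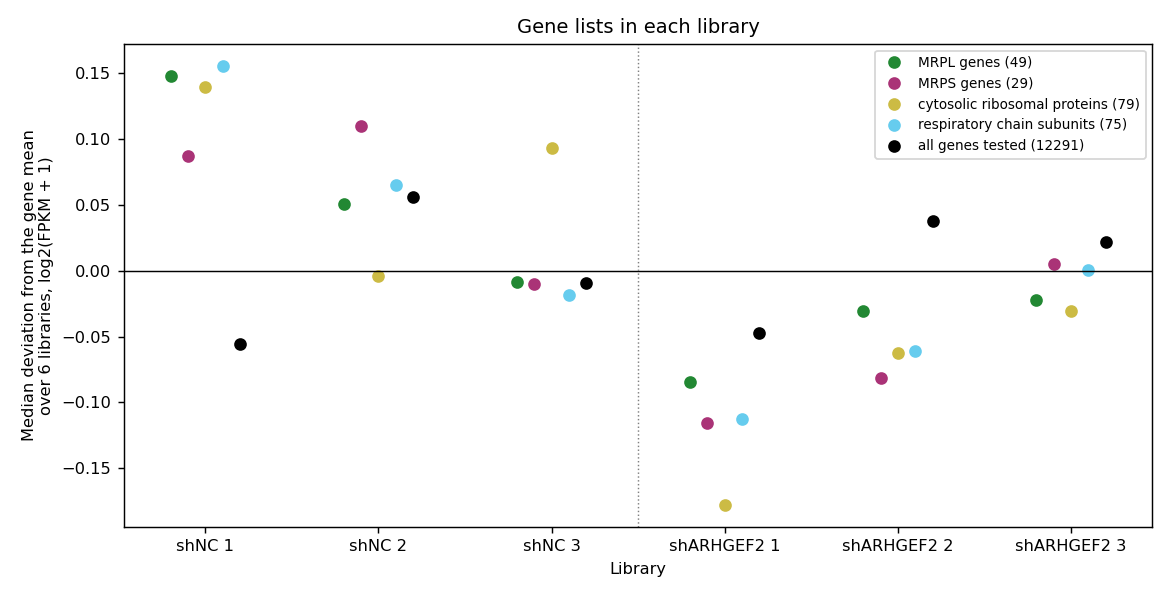
Median deviation of each gene list from the genes' own means over the 6 libraries on the log2(FPKM + 1) scale, for each shNC library (left of the dotted line) and shARHGEF2 library (right of it), with the number of genes in brackets. MRPL and MRPS genes are above 0 in shNC 1 and shNC 2, near 0 in shNC 3 and shARHGEF2 3, and below 0 in shARHGEF2 1 and shARHGEF2 2, with respiratory chain subunits close beside them.

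Genes that work with the mitochondrial ribosome showed small differences as well, and 0 of them were called in limma. Of 5 mitoribosomal proteins with other names (DAP3, AURKAIP1, CHCHD1, PTCD3 and GADD45GIP1), 4 had a value below 0, with a median of -0.13 and CHCHD1 at -0.15 as the gene with the smallest p. Of 27 genes for ribosome assembly and rRNA modification, 19 were below 0, with a median of -0.026. DDX28, an RNA helicase of large subunit assembly, had 9.10, 9.73 and 6.95 FPKM in shNC and 5.202, 2.880 and 5.316 FPKM in shARHGEF2 libraries. Its groups did not overlap, and its difference of -0.83 ± 0.21 (SE) did not pass the test (adjusted p = 0.148 in limma). C1QBP, an acidic matrix protein, followed with a mean of 111.1 and 92.5 FPKM.

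Translation factors were below 0 in 11 of 14 genes (median -0.13), with GFM1, the elongation factor of the translocation step, at means of 1.33 and 0.907 FPKM. MTRF1L, a release factor of the list named after its values were seen, was higher without overlap at means of 1.41 and 1.74 FPKM, and did not pass the test (adjusted p = 0.542 in limma). Aminoacyl-tRNA synthetases of mitochondria, which charge the tRNAs, were below 0 in 17 of 20 genes (median -0.13). MARS2 and PARS2, for methionine and proline, had mean ratios of 0.671 and 0.656 and groups that did not overlap. Regulators of mitochondrial transcription and biogenesis were below 0 in 6 of 13 genes, with a median of 0.049 that turned sign without shNC 1, shNC 2 or shARHGEF2 2. POLG, the polymerase of mitochondrial DNA, had the smallest p among them, at means of 8.37 and 10.9 FPKM with overlap.

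The 13 protein-coding genes of mitochondrial DNA, whose mRNAs are the only ones this ribosome reads, were below 0 in 9 cases. Their median was -0.10, and the groups of each gene overlapped. The median was 0.00 with quantile normalization and ran from -0.23 to -0.037 with a library left out. MT-CO3 had the smallest p, at means of 4175 ± 738 and 3322 ± 273 FPKM (SD, n = 3 each). The 2 rRNAs of the mitochondrial ribosome were looked up after the values of the other lists were seen. MT-RNR1, the rRNA of the small subunit, had 1152, 1072 and 784.2 FPKM in shNC and 694.3, 617.5 and 655.7 FPKM in shARHGEF2 libraries. The groups did not overlap, and its difference of -0.59 ± 0.14 (SE, adjusted p = 0.131 in limma) did not pass the test. MT-RNR2, the rRNA of the large subunit, overlapped between groups at -0.27 ± 0.11. The libraries were made by poly(A) selection, so rRNA levels also depend on how much of it was captured, and this was not tested.

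Values below 0 were also common among respiratory chain and cytosolic ribosomal protein genes. Nuclear subunits of the respiratory chain and ATP synthase were below 0 in 61 of 75 genes (median -0.10), with NDUFA3 at 20.2, 17.2 and 16.2 FPKM in shNC and 11.7, 10.9 and 12.3 FPKM in shARHGEF2 libraries. Cytosolic ribosomal protein genes were below 0 in 75 of 79 genes, with a median of -0.17. RPL36 had the smallest p of that list, with 217.9, 203.1 and 220.8 FPKM in shNC and 161.4, 171.0 and 161.9 FPKM in shARHGEF2 libraries. In that list 17 of 79 genes (21.5%) were lower at an unadjusted p under 0.05 in limma. Groups did not overlap, with shARHGEF2 lower, in 29 of the 79 (36.7%). Of the 75 respiratory chain genes, 12 (16%) and 16 (21.3%) were lower on these counts, and 1 was higher on each. The 78 mitochondrial ribosomal genes had 11 (14.1%) and 13 (16.7%), beside 5.55% and 9.17% of all genes tested. All lists were compared on the same 6 libraries, so their values are not independent of each other.

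**Figure D5:**
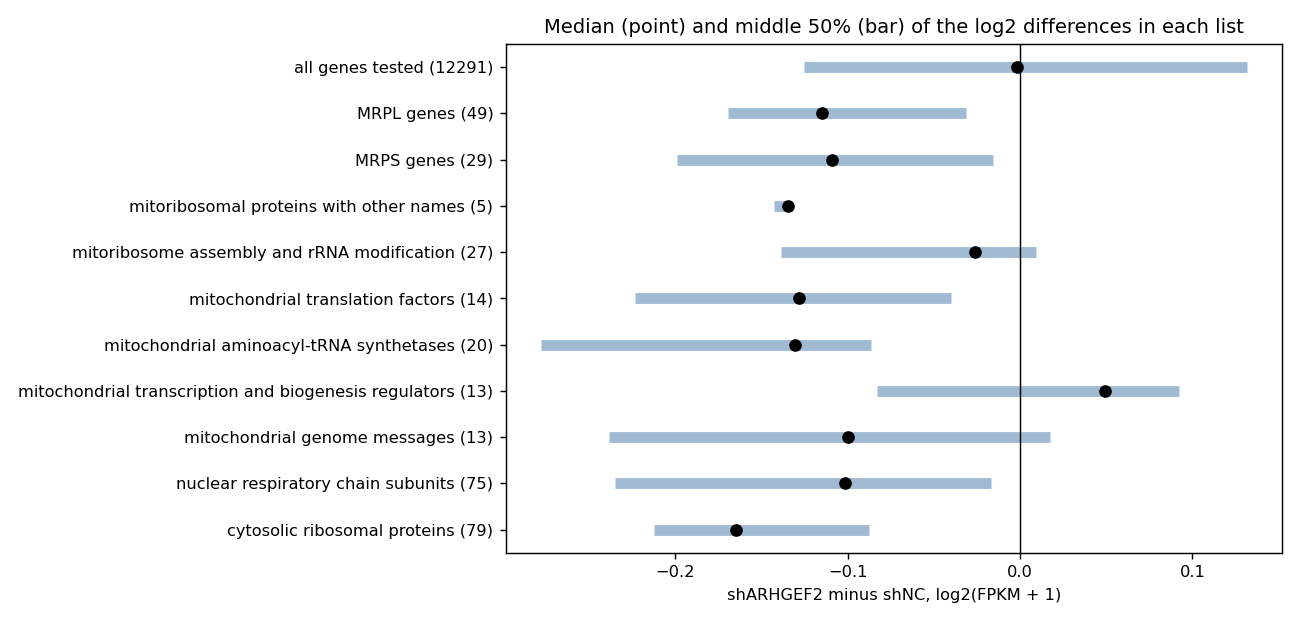
Median (point) and middle 50% (bar) of the differences between shARHGEF2 and shNC cells on the log2(FPKM + 1) scale for each gene list, with the number of tested genes in brackets. Medians are -0.0016 for all genes, -0.12 for MRPL, -0.11 for MRPS and -0.17 for cytosolic ribosomal protein genes, and only the regulators have a median above 0, at 0.049.

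Promoters of nuclear genes for mitochondrial proteins are known for binding sites of ETS family factors, of NRF1 and of YY1. RefSeq promoter windows on GRCh38.p14, from 250 bases before to 50 after the start, were matched by symbol for 69 of the 78 genes. The ETS core CCGGAAG, searched on both strands, was found in 29 of 69 windows (42.0%, exact binomial 95% interval 30.2 to 54.5), in 20.1% of 8649 windows of tested genes and in 10.7% of all 27305 windows. A long YY1 motif, AAGATGGCG followed by G, was in 13 windows (18.8%), beside 3.02% of windows of tested genes and 1.28% of all. When only the 250 bases before the start were searched, it was in 4.35% of the family's windows, beside 0.61% of those of tested genes and 0.36% of all. The palindromic NRF1 motif, GCGCATGCG followed by C, was in 1 window (1.45%, beside 2.22%). The SP1 box GGGCGG was in 60.9% of the windows (73.0% of those of tested genes), TATAAA in 2.9% (5.33%), CCAAT in 28.99% (36.91%) and the E-box CACGTG in 8.7% (10.5%). None of these motifs contains another as written. A match describes the letters of a window and says nothing about binding.

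The windows with an ETS core within 100 bases before the start are shown for 8 genes in which the core lies in a run of at least 50 such bases outside every exon of GENCODE 29. They include MRPL58 and MRPL20 from the 12 members above, MRPS31 from the 6 with the lowest mean ratios, and the abundant MRPS34. Sequences run 5′ to 3′ on the strand of the gene, and capitals mark the ETS core or its reverse complement. Coordinates on GRCh38.p14 are chr17:75012570-75012669 (plus strand) for MRPL58, chr1:1407314-1407393 (minus) for MRPL20, chr13:40771191-40771290 (minus) for MRPS31, chr16:1773156-1773206 (minus) for MRPS34, chr6:43687792-43687891 (minus) for MRPS18A, chr6:42217866-42217961 (minus) for MRPS10, chr3:131502984-131503071 (minus) for MRPL3 and chr3:139343894-139343955 (plus) for MRPS22.
MRPL58: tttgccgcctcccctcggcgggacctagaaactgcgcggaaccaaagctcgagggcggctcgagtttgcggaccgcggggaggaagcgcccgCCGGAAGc
MRPL20: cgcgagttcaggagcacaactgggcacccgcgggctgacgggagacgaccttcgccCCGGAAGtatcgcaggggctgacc
MRPS31: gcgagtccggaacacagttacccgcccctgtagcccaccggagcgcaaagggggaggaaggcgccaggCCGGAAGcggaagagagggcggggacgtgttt
MRPS34: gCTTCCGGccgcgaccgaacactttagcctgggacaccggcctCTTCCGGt
MRPS18A: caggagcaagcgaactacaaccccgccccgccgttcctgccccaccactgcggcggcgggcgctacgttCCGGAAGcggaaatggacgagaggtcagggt
MRPS10: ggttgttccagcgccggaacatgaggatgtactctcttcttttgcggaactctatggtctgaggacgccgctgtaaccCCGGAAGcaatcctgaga
MRPL3: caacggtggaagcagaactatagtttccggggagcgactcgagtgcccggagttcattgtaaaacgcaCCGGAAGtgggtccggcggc
MRPS22: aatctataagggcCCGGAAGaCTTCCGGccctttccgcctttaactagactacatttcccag

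In MRPS34 and MRPS22 the printed stretch holds 2 cores, and in the other 6 it holds 1. Members with an ETS core in the whole window had a value below 0 in 27 of 29 cases, with a median of -0.14, and those without in 30 of 40, with a median of -0.077. Medians in the splits by every other motif searched went the other way. With and without CCAAT they were -0.045 and -0.13 (15 of 20 and 42 of 49 below 0). For the YY1 motif they were -0.079 and -0.12 (12 of 13 and 45 of 56). The SP1 box had -0.11 with and -0.13 without it, and the E-box -0.059 and -0.12. TATAAA, in 2 windows, had -0.074 and -0.12, and the NRF1 motif, in 1 window, had -0.057 and -0.12. None of these splits was tested. The core was in 42.0% of the family's 69 windows. Of the 12 members with the smallest p, picked from these same data, 6 had the core (MRPS16, MRPL58, MRPL20, MRPS21, MRPL40 and MRPL47). MRPS34, which also has it, had 190.2, 162.2 and 177.1 FPKM in shNC and 163.0, 165.9 and 198.9 FPKM in shARHGEF2 libraries, with overlap and a difference of -0.0074.

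Many of these genes start next to a gene of the other strand. Within 1000 bases, 29 of the 78 genes (37.2%) faced the start of a protein-coding gene, beside 12.98% of 19922 protein-coding genes in GENCODE 29. That comparison set also holds genes that did not pass the filter on low values, whereas all 78 members did. The share among tested genes alone was not computed. MRPL46 and MRPS11 face each other and had differences of -0.077 and 0.012. MRPL36 (-0.15) faces NDUFS6 (-0.33), a subunit of complex I, and MRPL47 (-0.27) faces NDUFB5 (-0.11). MRPL57 (-0.32) faces SKA3 (0.0085), a kinetochore protein, and MRPS12 (-0.045) faces SARS2 (-0.14), the mitochondrial serine tRNA synthetase. Over the 17 tested neighbours outside the family, 10 had a value below 0, with a median of -0.071. Only PPP1R10 (-0.75), which faces MRPS18B (-0.0061), had an unadjusted p under 0.05 in limma. Signs were opposite in further pairs, such as NCAPD2 (0.20) with MRPL51 (-0.13), TMEM63B (0.16) with MRPL14 (-0.14) and PELI3 (0.28) with MRPL11 (-0.20). The value of a member and that of its neighbour share a promoter region and the same libraries, and their relation was not tested.

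Reads may also be shared between genes. In GENCODE 29, 34 of the 78 genes have named pseudogenes, 75 in all, of which 13 were in the table at up to 0.781 FPKM. With 17 members, over 10% of the exon bases lie opposite a gene on the other strand, and the protocol marks strands, but whether strand was used in quantification is not given in the sources used here. On the same strand, 16 members share exon bases with another gene, among them MRPS17 (27.0%), MRPL53 (45.2%, with CCDC142) and MRPL12, so their values are uncertain.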

How the data were processed

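Expression of 27605 genes was deposited as FPKM for 6 libraries of cells labelled HepG2 (3 shNC, 3 shARHGEF2). Per the labels, poly(A) RNA was sequenced as stranded read pairs with molecular identifiers, and the submitters' processing notes name cutadapt 1.9, HISAT2 2.0.4, UMI-tools, StringTie 1.3.4d and hg19. The identifiers in the table also match GENCODE 29 on GRCh38 (94.69% of listed transcripts), which gave positions, lengths and GC content. Columns with the authors' fold change and p-values were not used. Read counts could not be recovered, since only 38.7% to 40.7% of low values lay within 0.1 of whole pairs.

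limma 3.58.1 in R 4.3.3 (trend and robust variances, statmod 1.5.0) was fitted to log2(FPKM + 1) of the 12291 genes whose mean reached 0.5 FPKM, with Benjamini-Hochberg adjustment over all of them and a threshold of 0.05. Differences are shARHGEF2 minus shNC and understate changes of low genes. It was tested on simulated data for these 12291 genes. Summed values and lists have no test. Promoters were taken from RefSeq. Python 3.11.15, pandas 2.3.3, numpy 2.4.6, SciPy 1.17.1 and matplotlib 3.10.9 were used.

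Members, lists, roles and alternatives were chosen with earlier results of these data known. Named genes were ARHGEF2, the 12 members with the smallest p, the 5 with the largest differences in each direction, the 5 highest and the 5 lowest in level, the S18 paralogs, 7 members chosen for their roles and at most 3 genes per list. The other members, MTRF1L, MT-RNR1, MT-RNR2 and the neighbours were named after their values were seen.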

Additional observations from a re-analysis of the deposited data

How the results depend on the processing

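Under all 15 alternatives tried (a pseudocount of 0.1, other filters and scalings, no trend or robust variances, a replicate block, GC removal, each library left out), the median of the 78 genes stayed below 0 (-0.15 to -0.066), 55 to 65 genes were below 0, and 0 were called higher. Called lower was 1 gene, MRPL1, with a pseudocount of 0.1 and with at least 1 FPKM in 3 or more libraries. MRPL1 passed the latter filter only through the shNC libraries. At an unadjusted p under 0.05, 6 members were lower without a filter, with libraries rescaled to 1 total, without trend and robust variances and with the replicate block, 3 to 13 with a library left out, and 1 was higher with the GC trend removed or without shNC 1 (0 to 1 over the libraries left out). With libraries rescaled, 55 of 78 genes were below 0 in place of 63, and the median over all genes was 0.025.

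Over all genes tested, calls higher and lower were 0 and 1 without a filter, 39 and 15 with at least 1 FPKM in 3 or more libraries, 12 and 7 with quantile normalization, 4 and 3 with median ratio scaling and likewise without trend and robust variances, 40 and 19 with the GC trend removed, 0 and 0 with the replicate block, and 3 to 76 and 3 to 26 with a library left out (76 and 26 without shNC 3). In the block fit 1976 genes had an unadjusted p under 0.05. ARHGEF2 kept a difference of -1.47 but lost its call without a filter and with the block. Libraries of equal number had residual correlations of 0.184, 0.159 and -0.105. No library label says that equal numbers mark a pair, and whether they do was not tested. The cause of these changes was not tested.

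Signs turned in 11 of the 34 named members, and their adjusted p missed the threshold in all of these fits. With quantile normalization and with rescaled libraries MRPL41 was at 0.0043 and 0.0039 and MRPS34 at 0.014 and 0.030, and rescaling put MRPS18B at 0.031 and MRPS26 at 0.0051. With a library left out, differences ran from -0.075 to 0.25 for MRPL19, -0.12 to 0.060 for MRPL41, -0.15 to 0.12 for MRPL42, -0.034 to 0.14 for MRPL44, -0.17 to 0.011 for MRPL45, -0.19 to 0.85 for MRPL49, -0.14 to 0.059 for MRPS12, -0.15 to 0.026 for MRPS18A, -0.045 to 0.053 for MRPS18B and -0.098 to 0.048 for MRPS34.

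Medians of lists moved with a library left out from -0.16 to -0.038 for large subunit genes specific to mitochondria, -0.19 to -0.067 for small subunit genes with bacterial counterparts, -0.11 to 0.0027 for small subunit genes specific to mitochondria, -0.17 to -0.036 for translation factors, -0.093 to 0.079 for regulators and -0.23 to -0.037 for messages of mitochondrial DNA, which had 0.00 with quantile normalization. The YY1 motif was in 4.35% of windows before the start, beside 0.61% of those of tested genes. With 3 libraries per group and no read counts, counting error was not estimated for single genes. Values of low genes such as MRPL1 and MRPL42 therefore remain uncertain. The SE in limma was 0.13 for MRPL1 and 0.14 for MRPL42, and the largest of the family was that of MRPL49 (0.69).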
